A study of Mus musculus with 24 samples.

Results

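The tubulin isotypes described here are 8 genes, 5 encoding alpha-tubulins (Tuba4a, Tuba8, Tuba1a, Tuba1b, Tuba1c) and 3 encoding beta-tubulins (Tubb2b, Tubb5, Tubb6), of 11430 genes tested on a mouse heart microarray. They were chosen by their names on the array, after earlier results on these arrays had shown Tuba4a lower after ischemia-reperfusion (I/R), so the comparison of injured with sham hearts is given for them as a description without a test. All 8 passed the filter on dim probes, as did all 12 of their probes, and each gene is represented by the probe with the brightest mean heart signal.

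Alpha- and beta-tubulin join into dimers that polymerise into microtubules, the hollow filaments that carry cargo and give the cardiomyocyte part of its stiffness. Each mammalian cell type makes its own mixture of the isotypes encoded by the tubulin gene family, and the proteins are further modified, for example by removal of the terminal tyrosine that most alpha-tubulin genes encode. Tuba4a encodes an alpha-tubulin without that terminal tyrosine, Tuba8 is known from heart, skeletal muscle, testis and brain, and Tuba1a and Tubb2b are known from developing neurons. Tuba1b, Tuba1c, Tubb5 and Tubb6 are expressed in many dividing and non-dividing cells.

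Hearts came from wild-type mice and from transgenic mice labelled MuRF1 Tg+, aged 12 to 16 weeks. MuRF1 (gene symbol Trim63) attaches ubiquitin to muscle proteins. The promoter that drives the transgene and the strain of the mice are not given in the sources used here. Each heart had either a sham operation or a passing block of a coronary artery followed by renewed flow, called I/R here. Tissue was taken above or below the site where the left anterior descending artery is ligated. The 8 groups of genotype, surgery and piece hold 3 arrays each, labelled as biological replicates, and the time from reperfusion to harvest is not given. On every array the heart RNA was read in the Cy5 channel against Cy3-labelled RNA from a pool of whole day 1 pups of strain C57BL/6, so each value is a log2 ratio of heart to pup, with 0 where both gave equal signal. No array had the dyes swapped, so a dye bias enters each ratio but cancels between groups of hearts.

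Signal differed among the libraries. Between 34.6% and 43.3% of probes were well above background in the heart channel of the 12 sham arrays, against 9.90% to 24.2% on 5 of the 12 I/R arrays and 28.3% to 38.3% on the other 7. The 5 weak-signal arrays were wild-type I/R above replicates 1 and 2, wild-type I/R below replicate 1, and Tg+ I/R below replicates 2 and 3, so the I/R minus sham differences of the 8 tubulins are given with and without them. The probe of Trim63 read 1.99 ± 0.60 (SD, n = 12) in wild-type and 1.78 ± 0.78 (SD, n = 12) in Tg+ arrays, and these values overlapped. Whether this probe lies within the transgene is not given, so it gives no check of the genotype labels. All 10 ventricular cardiomyocyte markers passed the filter, and their median log2 ratio was 3.09 to 4.24 on the single sham arrays.

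The tubulin genes are close in sequence, so the probes decide which isotype a value belongs to. Some of the 60-base probes that lie in coding sequence are shown 5′ to 3′ as listed in the scanner files: a pair for Tuba4a, which was lower after I/R in all 4 comparisons, and those of Tuba8 and Tubb5 beside the overlapping probe of a relative, because they show how far these isotypes can be told apart. Capitals mark bases that differ between the 2 overlapping probes; the Tuba4a probes are not compared with another and have no capitals.
Tuba4a, dimmest probe: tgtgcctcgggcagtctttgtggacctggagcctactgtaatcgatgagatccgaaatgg
Tuba4a, brightest probe: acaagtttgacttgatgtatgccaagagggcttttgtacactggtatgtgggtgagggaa
Tuba8: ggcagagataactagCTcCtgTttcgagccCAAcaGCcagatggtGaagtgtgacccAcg
Tuba3a: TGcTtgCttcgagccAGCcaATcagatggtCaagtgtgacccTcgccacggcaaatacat
Tubb5: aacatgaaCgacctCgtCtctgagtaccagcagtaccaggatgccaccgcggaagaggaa
Tubb2a: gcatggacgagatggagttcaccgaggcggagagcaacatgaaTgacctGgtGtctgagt
The Tuba8 and Tuba3a probes overlap over 45 bases and differ at 11. The Tubb5 and Tubb2a probes overlap over 25 bases and differ at only 3.

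The Tuba1b probe is listed with RefSeq accessions of 3 genes, Tuba1a, Tuba1b and Tuba1c, so its values cannot be assigned to 1 of them. The probe for Tubb2a, a beta-tubulin outside the 8, is likewise listed with accessions of Tubb2a, Tubb2b, Tubb3 and Tubb6. The probes used for Tuba1a, Tuba1c, Tubb2b and Tubb6, whose sequences are not printed, share no run of 15 bases with a probe of another tubulin gene on the array. The Tuba1b and Tubb2a probes share none either, so this does not show that a probe reads only 1 isotype. The probes were not aligned to transcripts.

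In sham hearts the isotypes fell on both sides of the pup reference. Tuba8 and Tuba4a were higher in the adult heart than in the whole pup, by 5.20-fold and 2.58-fold. Tuba1a was lower by 10.2-fold, Tubb2b by 4.25-fold, Tubb5 by 4.12-fold, Tubb6 by 3.04-fold, Tuba1b by 2.58-fold and Tuba1c by 2.54-fold. These folds are means over 12 sham arrays and carry any dye bias, so they describe each probe and are not levels that can be set against each other. The sham arrays were close together, with SDs between 0.083 for Tubb5 and 0.21 for Tubb2b on the log2 scale.

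Tuba4a separated the surgeries on every array. In wild-type sham hearts its log2 ratio was 1.24, 1.48 and 1.46 above the ligation site and 1.49, 1.43 and 1.25 below it. In wild-type I/R hearts it was -0.059, -0.49 and 0.13 above the site and -0.61, 0.33 and 0.57 below it. All 6 wild-type I/R arrays lay under the 6 wild-type sham arrays, and the lowest of them, -0.61 and -0.49, were weak-signal arrays.

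In Tg+ sham hearts Tuba4a read 1.32, 1.18 and 1.17 above the site and 1.48, 1.46 and 1.47 below it. In Tg+ I/R hearts it read -0.0069, 0.093 and 0.46 above the site and 0.67, 0.59 and 0.52 below it. Again no I/R array reached a sham array, and the 3 Tg+ I/R arrays below the site lay close together although 2 of them were weak. The lowest of all 12 sham arrays was 1.17 and the highest of all 12 I/R arrays was 0.67. How many of all genes separate the surgeries in this way was not counted. Depending on the comparison, 2365 to 5279 of all genes differed between I/R and sham at an unadjusted p under 0.05 in limma.

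**Figure D1:**
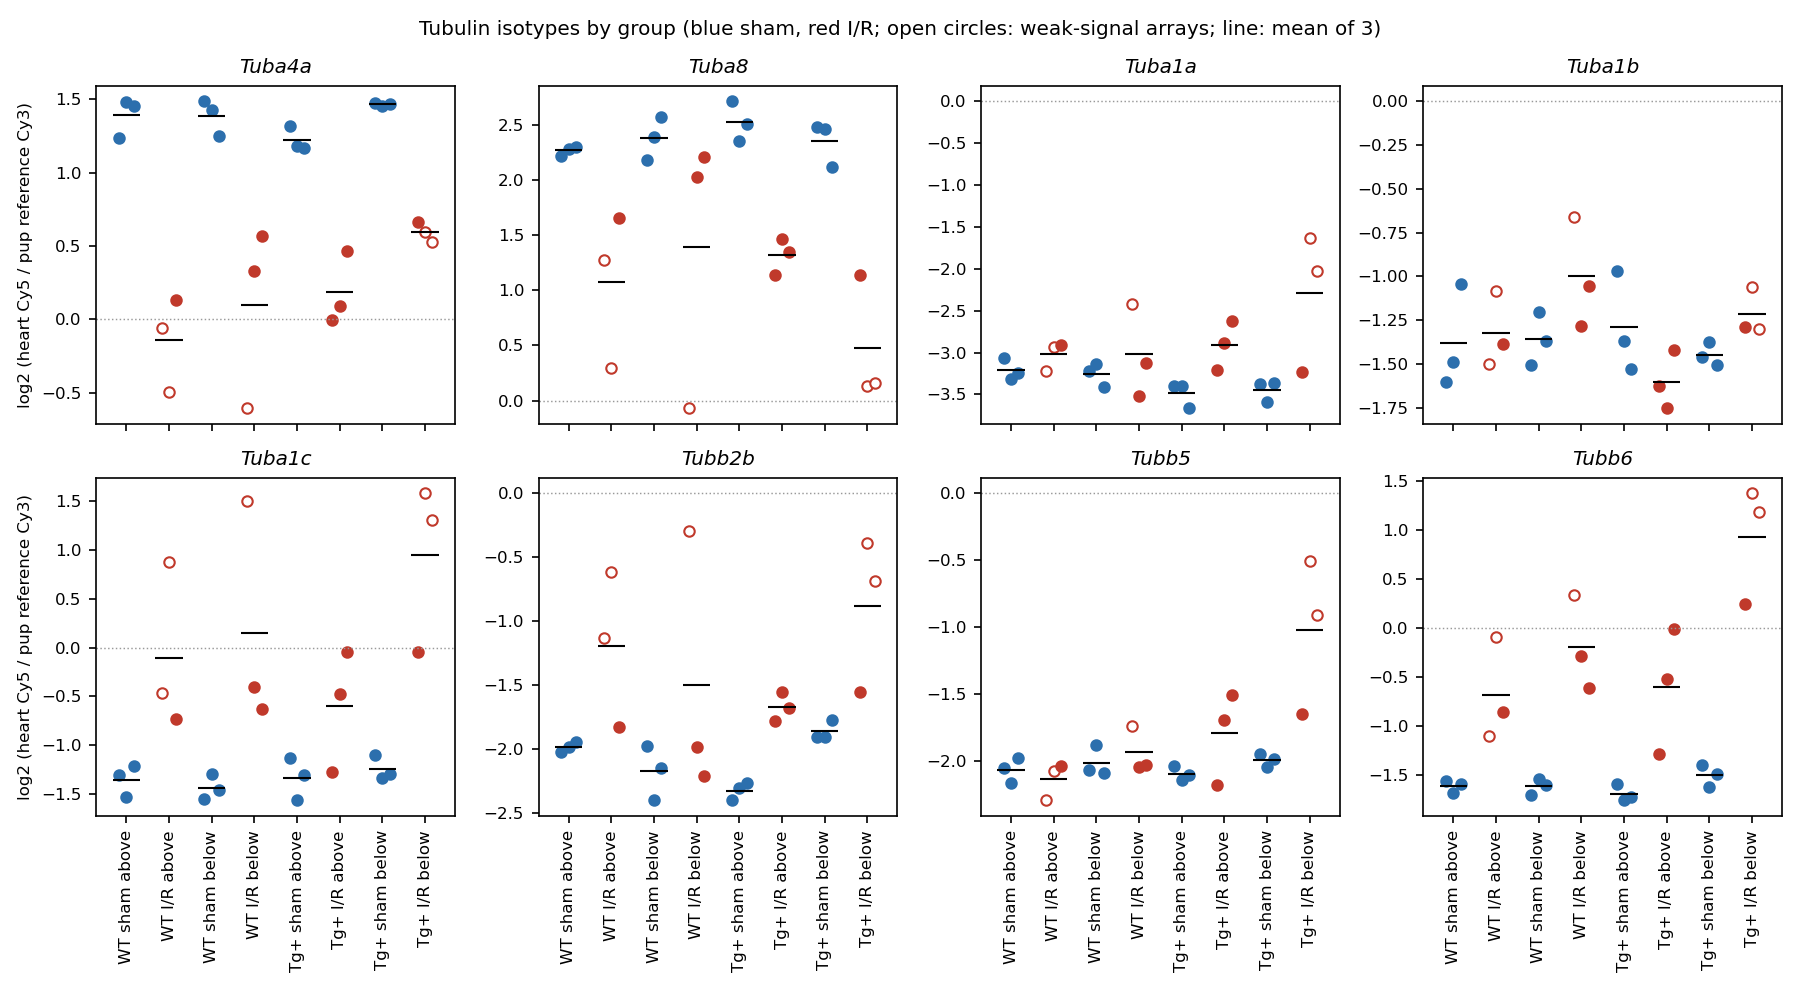
Log2 ratio of heart to pup reference for each of the 8 tubulin isotypes, by group on the x axis, with 1 point per array and a line at the mean of 3 arrays; sham arrays are blue, I/R arrays red, and the 5 weak-signal I/R arrays are open circles. Tuba4a lies lower on all 12 I/R arrays and Tubb6 higher on all 12, while the open circles of Tuba8, Tuba1c and Tubb2b lie farthest from the sham arrays.

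The Tuba4a difference of I/R minus sham was -1.53 ± 0.21 (SE, 3 against 3 arrays) in wild-type tissue above the site, or 2.90-fold lower. It was -1.29 ± 0.21 in wild-type tissue below the site, -1.04 ± 0.21 in Tg+ tissue above and -0.87 ± 0.21 in Tg+ tissue below, or 2.45-, 2.06- and 1.83-fold lower. Without the weak-signal arrays these 4 differences were -1.26, -0.94, -1.04 and -0.80. The median over the 7 other tubulins tested outside the 8 was -0.15, 0.13, -0.19 and 0.28 in the same order, and over all genes it was between -0.0024 and 0.0035. Each SE given here and for the other genes comes from 1 fit that pools the spread over all 8 groups. The SD of Tuba4a ran from 0.011 in Tg+ sham tissue below to 0.62 in wild-type I/R tissue below. An SE can thus be too narrow where a group spreads widely.

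All 3 Tuba4a probes were lower after I/R in all 4 comparisons. The middle probe differed by -1.35, -0.95, -1.43 and -1.87 in the order wild-type above, wild-type below, Tg+ above and Tg+ below. The dimmest probe differed by -1.35, -0.88, -1.71 and -1.53. The order of the 4 comparisons was not shared among probes: the brightest gave its smallest difference in Tg+ tissue below the site, where the middle probe gave its largest.

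Tuba8 was also lower after I/R, but with a wide spread. Its sham arrays ran from 2.11 to 2.71 with a median of 2.37. On I/R arrays it read 1.27, 0.30 and 1.65 in wild-type tissue above the site and -0.071, 2.02 and 2.21 below it. It read 1.14, 1.46 and 1.35 in Tg+ tissue above the site and 1.13, 0.13 and 0.15 below it. Of the 12 I/R arrays, 11 lay under every sham array, the exception being wild-type below replicate 3 at 2.21.

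The 4 Tuba8 differences were -1.19, -0.99, -1.21 and -1.88, each ± 0.43 (SE), in the order given for Tuba4a. The 5 weak-signal arrays held Tuba8 at -0.071 to 1.27 and the other 7 I/R arrays at 1.13 to 2.21. Without the weak arrays the differences were -0.61, -0.26, -1.21 and -1.22, and the smallest was in wild-type tissue below the site. The Tuba8 probe was well above background on 9 of 12 I/R arrays and on all 12 sham arrays.

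**Figure D2:**
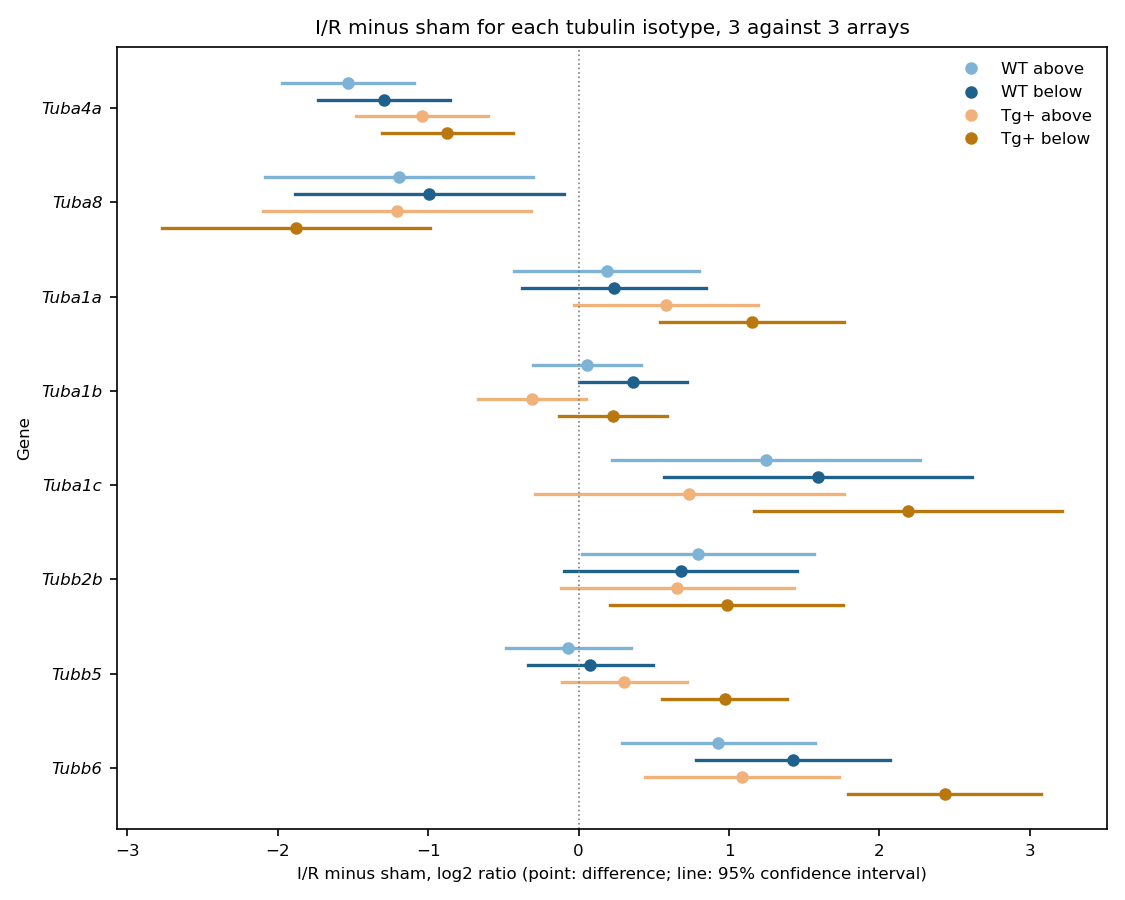
I/R minus sham difference in log2 ratio on the x axis for each tubulin isotype on the y axis, in 4 combinations of genotype and piece. Points are differences between means of 3 arrays and lines their 95% confidence intervals, from the spread pooled over all 8 groups. Tuba4a and Tuba8 lie left of 0 in all 4 combinations, Tuba1c, Tubb2b and Tubb6 right of it, and Tuba1b on both sides.

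Among the other alpha-tubulins Tuba1c was higher after I/R. Its sham arrays ran from -1.57 to -1.10 with a median of -1.31. On I/R arrays it read -0.46, 0.88 and -0.74 in wild-type tissue above the site and 1.50, -0.41 and -0.64 below it. It read -1.28, -0.47 and -0.047 in Tg+ tissue above the site and -0.050, 1.58 and 1.31 below it. It exceeded every sham array on 11 of 12 I/R arrays, and its only values above 0 on I/R arrays, 4 in number, came from weak-signal arrays.

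The Tuba1c differences were 1.25, 1.59, 0.74 and 2.19, each ± 0.49 (SE), and 0.62, 0.92, 0.74 and 1.19 without the weak arrays. Tuba1a differed by 0.19, 0.24, 0.58 and 1.15, each ± 0.29 (SE). Without the weak arrays these were 0.29, -0.064, 0.58 and 0.22; the weak arrays of Tg+ tissue below the site read -1.63 and -2.02 against -3.23 on the third. With Agilent's own log ratio the wild-type values of Tuba1a were -0.44 and -0.43, so their sign was not settled. The probe for Tuba1b, shared with Tuba1a and Tuba1c, differed by 0.054, 0.36, -0.31 and 0.23, each ± 0.17 (SE). Without the weak arrays it differed by -0.0086, 0.19, -0.31 and 0.16, and with Agilent's own log ratio by -0.39, -0.080, -0.53 and -0.56. Its sign thus depended on the comparison and on the processing.

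Tubb6 was the beta-tubulin with the widest separation. Its sham arrays ran from -1.76 to -1.40 with a median of -1.59. On I/R arrays it read -1.10, -0.093 and -0.85 in wild-type tissue above the site and 0.33, -0.29 and -0.61 below it. It read -1.28, -0.52 and -0.0037 in Tg+ tissue above the site and 0.25, 1.38 and 1.18 below it. All 12 I/R arrays lay above all 12 sham arrays, weak-signal or not, a separation that was not counted over all genes.

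The Tubb6 differences were 0.93, 1.42, 1.09 and 2.43, each ± 0.31 (SE), or 1.90-, 2.68-, 2.12- and 5.40-fold higher. Without the weak arrays they were 0.76, 1.16, 1.09 and 1.74. A dimmer probe that carries the name Tubb6 on the array differed by -0.48, -0.13, -0.48 and -0.65. Its listed genomic positions run in the opposite direction to those of the bright probe. Whether it reads the opposite strand was not checked by alignment, and the probes named Tubb6 disagree in direction. The dimmer one was not used for the gene.

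Tubb5 lay near its sham level in wild-type hearts and higher on part of the Tg+ arrays. Its sham arrays ran from -2.17 to -1.88. The differences were -0.069 and 0.076 in wild-type tissue above and below the site and 0.30 and 0.97 in Tg+ tissue, each ± 0.20 (SE). Without the weak arrays they were 0.025, -0.024, 0.30 and 0.35, so most of the value in Tg+ tissue below the site came from weak-signal replicates 2 and 3. With Agilent's own log ratio the wild-type values were -0.44 above and -0.34 below the site, so how near they lay to sham depended on the ratio used. A second Tubb5 probe differed by 0.34, 0.20, 0.43 and 1.19 in the order wild-type above, wild-type below, Tg+ above and Tg+ below.

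Tubb2b was the dimmest member, well above background on 7 of 12 sham and 9 of 12 I/R arrays. It differed by 0.79, 0.68 and 0.66, each ± 0.37 (SE), in wild-type tissue above, wild-type tissue below and Tg+ tissue above the site. Without the weak arrays these were 0.15, 0.075 and 0.66. In Tg+ tissue below the site it was well above background on none of the sham arrays and on 2 of the 3 I/R arrays. The Cy5 signals there were 45.3 to 47.8 and 41.6 to 50.2, so no fold is given. The fitted difference was 0.98, and 0.30 without the weak arrays. The weak-signal I/R arrays read -1.13 to -0.29 and the others -2.22 to -1.56, close to the sham range of -2.40 to -1.77.

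**Figure D3:**
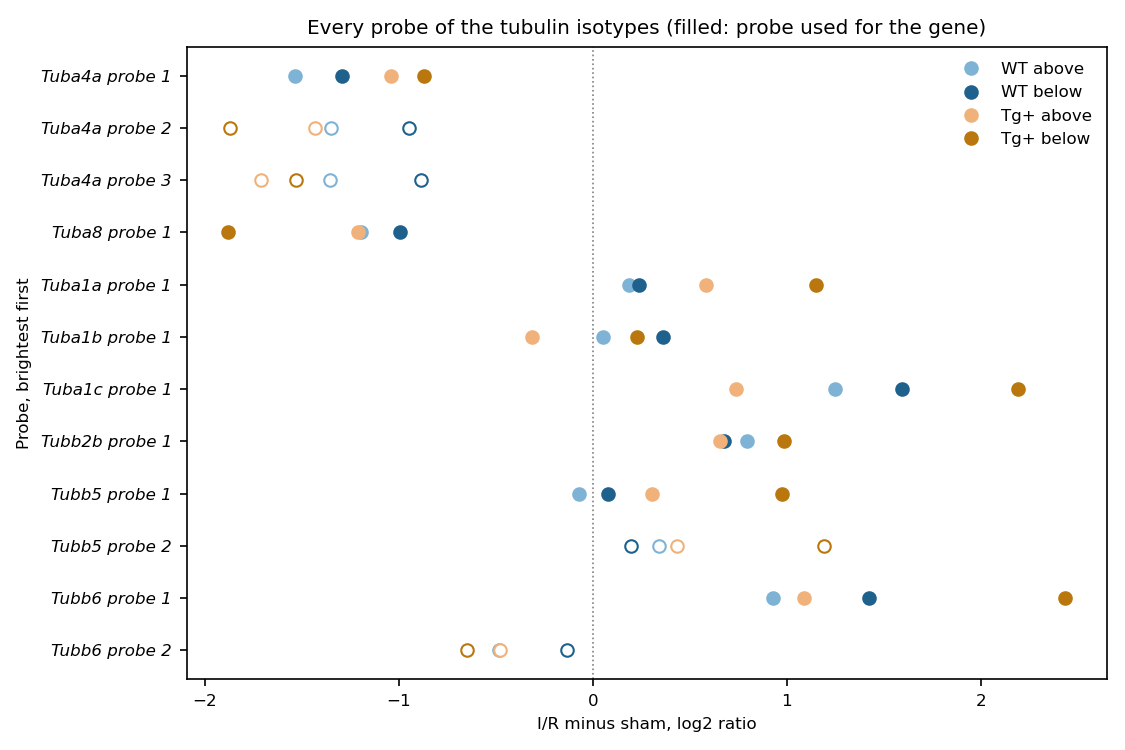
I/R minus sham difference in log2 ratio on the x axis for each of the 12 member probes on the y axis, ordered within a gene by brightness; filled points are the probes used for the gene and colours the 4 combinations of genotype and piece. The 3 Tuba4a probes lie between -1.87 and -0.87, and the second Tubb6 probe, which is listed in the opposite direction, lies left of 0.

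At an adjusted p under 0.05 in limma's moderated test, 13.3% of all genes were called different between I/R and sham in wild-type tissue above the site, 5.6% in wild-type tissue below, 15.3% in Tg+ tissue above and 32.5% in Tg+ tissue below. Among the 8 tubulins the same fit put 1, 2, 2 and 7 past that threshold. The tubulins were chosen with this contrast known, so nothing is read from these counts. In Tg+ tissue below the site 5 of the 7 were higher and 2 lower.

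The distance from the pup reference moved with the I/R difference over all genes. The log2 ratio in sham hearts and the I/R minus sham difference correlated at r = -0.60, -0.58, -0.55 and -0.73 over at least 11389 genes in wild-type above, wild-type below, Tg+ above and Tg+ below; both measures contain the same sham arrays. Genes above a log2 ratio of 1 in sham hearts had median differences of -0.35, -0.34, -0.34 and -0.71 in these comparisons. Genes under -1 had medians of 0.48, 0.34, 0.38 and 0.73.

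The same relation on single arrays was steeper where signal was weak. The slope of I/R minus sham on the sham ratio ran from -0.61 to -0.21 over the 5 weak arrays and from -0.27 to -0.0037 over the other 7. Tuba4a and Tuba8 are among the genes above 1, and the other 6 members were under -1. The part of this relation in the tubulin values was not tested. The flattest arrays were wild-type I/R below replicates 2 and 3, with slopes of -0.0037 and -0.036. On them Tuba4a read 0.33 and 0.57 and Tubb6 -0.29 and -0.61, all outside their sham ranges. Tuba8 read 2.02 and 2.21 there and Tubb2b -1.99 and -2.22, with 1 of those 4 values outside the sham ranges.

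**Figure D4:**
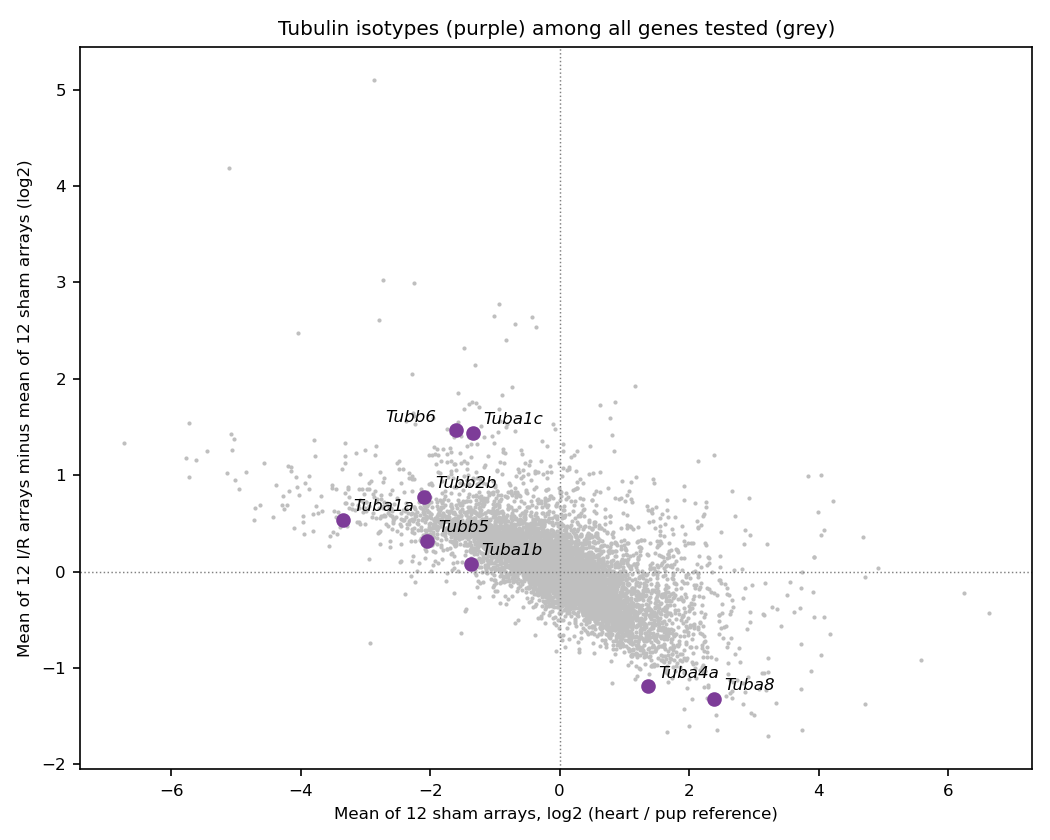
Mean log2 ratio of the 12 sham arrays on the x axis against the mean of the 12 I/R arrays minus the mean of the 12 sham arrays on the y axis, for all genes tested (grey) and the 8 tubulin isotypes (purple). The grey cloud slopes down from left to right, Tuba4a and Tuba8 lie at its lower right edge, Tuba1c and Tubb6 above it, and Tuba1a, Tuba1b, Tubb2b and Tubb5 within it.

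Array signal moved with some members more than with others. Over the 12 I/R arrays the share of probes well above background correlated with the log2 ratio at r = 0.92 for Tuba8, -0.97 for Tubb2b, -0.92 for Tuba1c, -0.67 for Tubb6 and 0.38 for Tuba4a. On the 7 I/R arrays with stronger signal, Tuba4a was outside the sham range on 7, Tubb6 on 7, Tuba8 and Tuba1c on 6 each, Tubb5 on 4, and Tubb2b and Tuba1a on 3 each. The same was not counted over all genes. The mean of those 7 arrays minus the sham mean was -1.05 for Tuba4a, -0.81 for Tuba8, 0.82 for Tuba1c and 1.13 for Tubb6.

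**Figure D5:**
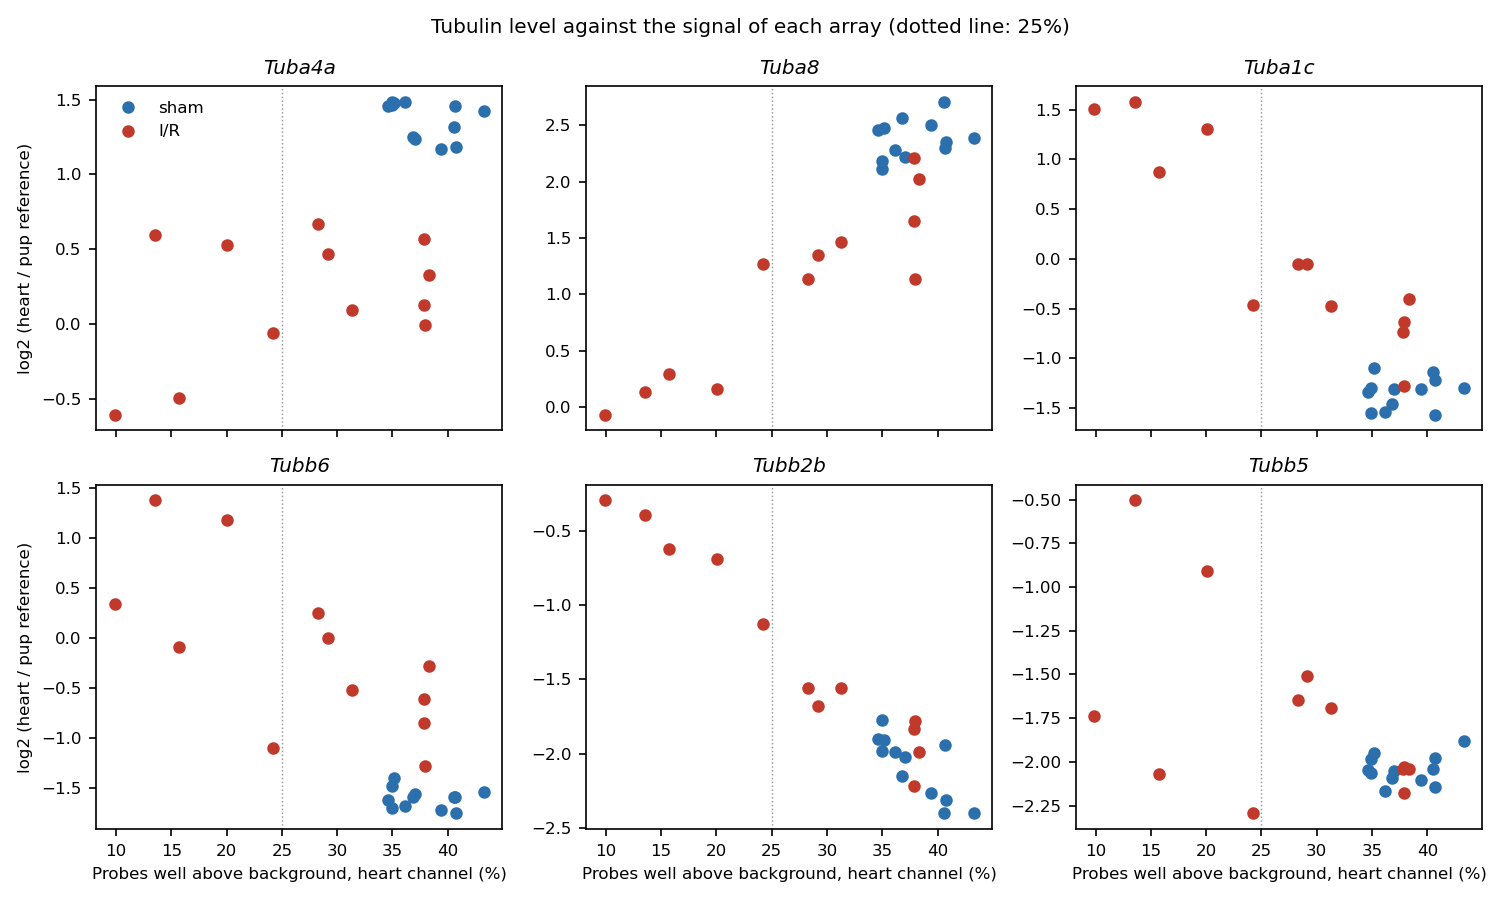
Log2 ratio of heart to pup reference on the y axis against the percentage of probes well above background in the heart channel on the x axis, with 1 point per array for 6 tubulin isotypes; sham arrays are blue, I/R arrays red, and the dotted line marks the 25% under which an array was called weak. Tuba4a and Tubb6 lie apart from the sham arrays on both sides of the line, and Tubb2b departs from sham mainly left of the line.

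Slides were checked as batches, since the 24 arrays lay on 7 slides, inferred from the barcode in the name of each scan. Within slides holding an I/R and a sham array of 1 genotype and piece, Tuba4a differed by -1.30 in wild-type above, -0.69 in wild-type below, -1.08 in Tg+ above and -0.87 in Tg+ below. Tubb6 differed by 0.46, 0.98, 1.20 and 2.86 and Tuba1c by 0.85, 0.82, 0.83 and 2.88 within the same slides. Tuba8 differed by -0.95, -0.36, -1.04 and -1.98. Each of these values sets 1 I/R array against 1 sham array. The I/R arrays used for wild-type above, replicate 1, and for Tg+ below, replicate 2, were weak-signal arrays.

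The genotype comparison asks whether the Tg+ hearts differ from wild-type hearts under the same surgery, and the members were not chosen on it. In sham tissue limma called 0 of 8 tubulins above the site, where 0.035% of all genes were called, and 0 of 8 below it, where 0.0262% were; 0 members had an unadjusted p under 0.05 in either. Tuba4a was -0.17 ± 0.21 (SE) above and 0.078 ± 0.21 below, Tg+ minus wild-type, with 95% confidence intervals from -0.61 to 0.27 and from -0.36 to 0.52. At unadjusted p under 0.05, 227 and 164 of all genes passed in those 2 comparisons. In I/R tissue above the site 0 of 8 were called, against 0.656% of all genes, with 0 members and 1605 of all genes at an unadjusted p under 0.05.

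In I/R tissue below the site Tubb5 was higher in Tg+ than in wild-type hearts. It read -1.65, -0.50 and -0.91 on the Tg+ arrays and -1.74, -2.04 and -2.03 on the wild-type arrays, so the groups did not overlap, but the lowest Tg+ array lay close to the highest wild-type array. The difference was 0.92 ± 0.20 (SE), or 1.89-fold, with an adjusted p of 0.026 in limma, higher in 3 of 3 Tg+ arrays, where 2.92% of all genes were called. The call rests on Tg+ replicates 2 and 3, which are weak-signal arrays: without weak-signal arrays the difference was 0.39, with an adjusted p of 0.18, and with the slide as a block the adjusted p was 0.51. Leaving out Tg+ replicate 2 or 3 or wild-type replicate 2 or 3 also ended the call, with adjusted p between 0.10 and 0.18.

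Tubb6 was 1.12 ± 0.31 (SE) higher in Tg+ tissue below the site, with an adjusted p of 0.054 in limma that missed the threshold, and 0.69 higher without the weak arrays. Tuba4a differed there by 0.50 ± 0.21 (SE) with an adjusted p of 0.16, and its interval ran from 0.062 to 0.94. This value is from the brightest probe, and over the 12 alternatives it ran from -0.22 to 0.50, so its sign was not settled. The other 5 members had adjusted p between 0.14 and 0.40, and 5 of the 8 had an unadjusted p under 0.05, as did 2846 of all 11430 genes. Without the weak-signal arrays, which leaves 1 Tg+ array in this comparison, Tuba8 at -0.98 and Tubb2b at 0.54 passed, with adjusted p of 0.012 and 0.034 in limma. Tubb2a, whose probe is listed for several beta-tubulins and overlaps that of Tubb5, was 0.94 ± 0.20 (SE) higher with an adjusted p of 0.026.

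The test of the difference itself, the interaction of genotype and surgery, called no tubulin. Above the site and below it, 0.0175% of all genes passed in each test, and 0 of 8 members did in limma, with 0 and 3 members and 945 and 1200 of all genes at an unadjusted p under 0.05. The largest member interaction below the site was 1.01 ± 0.43 (SE) for Tubb6 with an adjusted p of 0.44. For Tubb5 it was 0.90 ± 0.28 (SE) with an adjusted p of 0.33, and for Tuba4a 0.42 ± 0.30 with an adjusted p of 0.57. Over 12 alternatives the Tuba4a interaction ran from -0.38 to 0.52. Its middle probe fell by 0.95 in wild-type and 1.87 in Tg+ tissue below the site, and its dimmest probe by 0.88 and 1.53. The direction for Tuba4a thus depended on the probe.

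The comparison of pieces asks whether tissue below the ligation site, downstream of the occlusion, differs from tissue above it. In sham hearts, with genotypes averaged, 0 of 8 tubulins and 0% of all genes were called in limma, with 58 of all genes and 0 members at an unadjusted p under 0.05. In I/R hearts 0.175% of all genes and 0 of 8 members were called, with 5 members and 1147 of all genes at an unadjusted p under 0.05. Tubb6 was 1.01 ± 0.22 (SE) higher below than above the site with an adjusted p of 0.070 in limma, and Tubb5 0.49 ± 0.14 (SE) higher with an adjusted p of 0.18. The Tubb6 value passed in 6 of 12 alternatives, among them the heart as a random block with an adjusted p of 0.043 in limma and Agilent's own log ratio with 0.029; the largest over the 12 was 0.94. Without the weak arrays it was 0.63 with an adjusted p of 0.14. The pieces also differed in atrial cardiomyocyte markers, 5 of 6 tested: their median difference below minus above in I/R hearts was -3.03, with Myl7, an atrial myosin light chain, at -5.61 on the log2 scale and the other 4 not called. Their median level was -0.048 to 2.89 on the I/R arrays above the site and -2.20 to -0.41 on those below it, and their part in the tubulin values was not tested. The interaction of piece and surgery called 0 of 8 members and 0% of all genes, with 425 of all genes and 2 members at an unadjusted p under 0.05.

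Of 9 other tubulin genes with a probe, 7 passed the filter: Tuba3a, Tubb2a, Tubb3, Tubb4a, Tubb4b, Tubd1 and Tubg1. Tubg1, the gamma-tubulin that nucleates microtubules, fell after I/R in wild-type tissue above the site by 0.44 ± 0.11 (SE) on the log2 scale and below it by 0.40 ± 0.11, with adjusted p of 0.012 and 0.036 in limma. In Tg+ tissue below the site it fell by 0.32 ± 0.11 with an adjusted p of 0.029, and above it the difference was -0.27 with an adjusted p of 0.091. The wild-type value below the site was -0.24 without wild-type I/R below replicate 1, a weak-signal array. That call was lost in 8 of 12 alternatives and in 4 of 6 fits that leave out an array. The call in wild-type above was lost in 5 and 2 of these, and the call in Tg+ below in 5 and 4. Its sham range of 0.49 to 0.75 did not meet its I/R range of -0.057 to 0.46, a separation that was not counted over all genes.

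Among the I/R minus sham comparisons, the beta-tubulins outside the 8 passed the test only in Tg+ tissue below the site. There Tubb2a rose by 0.90 ± 0.20 (SE) and Tubb4a by 0.57 ± 0.15 with adjusted p of 0.0037 and 0.0077 in limma, and Tubb4b fell by 0.79 ± 0.22 with an adjusted p of 0.013. Without the weak-signal arrays none of these 3 passed, at 0.50, 0.34 and -0.26 with adjusted p of 0.21, 0.10 and 0.44. Tuba3a, Tubb3 and Tubd1 passed in no I/R comparison. A dimmer probe of Tuba3a and its close copy Tuba3b, with a sham ratio of 1.43, differed by -0.78, -0.46, -1.10 and -1.34 while the brighter one differed by -0.12, 0.31, -0.19 and 0.30, so those probes disagree.

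Genes that fold, modify or use tubulin were described from lists of 138 genes, other tubulins included, of which 101 were tested. The tests called 17 of 101 in wild-type above, 9 in wild-type below, 19 in Tg+ above and 38 in Tg+ below, or 16.8%, 8.91%, 18.8% and 37.6%, beside 13.3%, 5.6%, 15.3% and 32.5% of all genes. More were lower than higher in each: 11 against 6, 9 against 0, 13 against 6 and 23 against 15. All genes were split the same way, with 835 lower against 682 higher, 395 against 245, 957 against 794 and 1956 against 1760. Without the weak-signal arrays the list genes were split 7 lower against 9 higher in Tg+ below and 27 against 26 in Tg+ above. With Agilent's own log ratio the split was 5 lower against 1 higher in wild-type above and 1 lower against 2 higher in Tg+ above, and without background correction 11 against 8 in Tg+ above. The medians of the single lists lay between -0.19 and 0.28, and those of all genes near 0.

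Among microtubule-associated proteins past the threshold more fell than rose, as among all genes, while the medians of the whole list lay between 0.0080 and 0.057. Of 37 tested, 0 rose and 4 fell in wild-type above, 0 and 4 in wild-type below, 2 and 5 in Tg+ above, and 2 and 6 in Tg+ below. These are 10.8%, 10.8%, 18.9% and 21.6% of the list, beside 13.3%, 5.6%, 15.3% and 32.5% of all genes. Dst, a linker of microtubules to other cytoskeletal filaments, fell in all 4, by 0.97, 0.87, 0.63 and 0.95 on the log2 scale, each ± 0.15 (SE), with adjusted p from 0.00030 to 0.0096 in limma. Map7d1, a microtubule-binding protein of the MAP7 family, fell by 0.89, 0.69, 0.92 and 1.21, each ± 0.19. In wild-type below it came to -0.42 with an adjusted p of 0.17 in limma without I/R replicate 1, and that call was lost in 7 of 12 alternatives and 4 of 6 fits that leave out an array. Tacc2, a centrosomal protein, rose in Tg+ tissue by 1.35 above and 1.99 below the site, each ± 0.43, and Map6, which stabilises microtubules, rose by 0.88 ± 0.31 below, but by 0.20 with an adjusted p of 0.45 without the weak arrays. Mid1, a microtubule-bound ubiquitin ligase, rose by 0.37 ± 0.12 in Tg+ above. Leaving out any 1 of the 6 arrays ended this call, and also that of Tacc2 in Tg+ above.

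Among 28 motor genes tested, 3 rose and 4 fell in wild-type above, 0 and 3 in wild-type below, 2 and 5 in Tg+ above, and 5 and 8 in Tg+ below. These are 25%, 10.7%, 25% and 46.4% of the list, beside 13.3%, 5.6%, 15.3% and 32.5% of all genes. Dynll2, a dynein light chain, fell in all 4 comparisons, by 0.83, 0.91, 0.85 and 1.08, each ± 0.15 (SE), with adjusted p from 9.0e-05 to 0.0016 in limma. Its close relative Dynll1 rose in Tg+ tissue by 0.80 above and 1.07 below the site, each ± 0.25; below the site the value was 0.40 with an adjusted p of 0.071 without the weak arrays. Kif1b, a kinesin that carries mitochondria and vesicles, fell by 1.12 and 1.08 in wild-type tissue and by 1.06 in Tg+ tissue below the site, each ± 0.25. Dynlt1b, a dynein light chain of the Tctex family, rose by 0.81 in wild-type above and 1.10 in Tg+ below, each ± 0.26, while Dynlt3 of the same family fell by 0.55 ± 0.17 in Tg+ above. Dctn3, a dynactin subunit, rose by 0.57 ± 0.19 in wild-type above, and Kifap3, which joins kinesin-2 to its cargo, by 0.36 ± 0.11 in Tg+ above. The calls of Dynlt1b and Dctn3 in wild-type above were each lost in 9 of 12 alternatives and 5 of 6 fits that leave out an array.

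Of 20 folding genes tested, 3 rose and 1 fell in wild-type above, 0 in wild-type below, 1 rose and 3 fell in Tg+ above, and 5 rose and 5 fell in Tg+ below. These are 20%, 0%, 20% and 50% of the list, beside 13.3%, 5.6%, 15.3% and 32.5% of all genes. Pfdn5, a prefoldin subunit that hands unfolded tubulin to the chaperonin, rose by 1.24 ± 0.40 (SE) in wild-type above and 1.53 ± 0.40 in Tg+ below, with adjusted p of 0.046 and 0.0084 in limma. The chaperonin subunits went both ways in Tg+ below: Cct5 rose by 0.99 ± 0.18 and Cct4 fell by 0.70 ± 0.16. In Tg+ above Cct4 fell by 0.51 ± 0.16 and Tcp1, another subunit, by 0.42 ± 0.12, and in wild-type above Cct8 fell by 0.38 ± 0.10. Pfdn2, a further prefoldin subunit, fell by 0.70 ± 0.19 in Tg+ below. Tbcb, a cofactor that binds alpha-tubulin, rose by 0.38 ± 0.11 in Tg+ above. Tbca, a cofactor that binds beta-tubulin, rose by 0.65 ± 0.18 in wild-type above, and by 0.33 with an adjusted p of 0.092 without the weak arrays.

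Only 9 of 28 listed tubulin-modifying enzymes passed the filter. Ttll1, a subunit of a tubulin polyglutamylase, fell by 0.81, 0.65 and 0.97, each ± 0.19 (SE), in wild-type above, wild-type below and Tg+ below, with adjusted p of 0.0079, 0.045 and 0.0012 in limma. The wild-type value below the site was -0.34 with an adjusted p of 0.17 without I/R replicate 1, and that call was lost in 10 of 12 alternatives and 4 of 6 fits that leave out an array. Svbp, the partner of the vasohibins that remove the terminal tyrosine of alpha-tubulin, rose in Tg+ tissue by 0.36 above and 0.30 below the site, each ± 0.11. Agtpbp1, which removes glutamate side chains, fell by 0.79 ± 0.23 in Tg+ below, and by 0.36 with an adjusted p of 0.11 without the weak arrays.

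Counted per comparison, the genes named from these lists, other tubulins included, made 48 calls. Of these, 17 were lost without the weak-signal arrays and 42 with the slide as a block. Leaving out 1 array at a time ended 26 of the 48 calls at least once and moved 4 by over 1.5 times: those of Tubg1, Map7d1 and Ttll1 in wild-type below, given above, and Dynll1 in Tg+ below, at 0.70 without I/R replicate 2. In Tg+ above the calls of Tacc2 and Mid1 ended in 6 of 6 such fits, and those of Cct4, Dynll1, Svbp and Tbcb in 5. Also ended in 5 were those of Dctn3, Dynlt1b and Pfdn5 in wild-type above and of Map6 and Svbp in Tg+ below. The 6 that passed with the slide as a block were Dst in wild-type above and Tg+ below, Dynll2 in wild-type above, Tg+ above and Tg+ below, and Cct5 in Tg+ below, with adjusted p between 0.022 and 0.048 in limma.

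The genes most like Tuba4a over the 24 arrays by Pearson correlation were Tubg1 (r = 0.93), Tmx2 (0.92), Cxcl12 (0.92), Dysf (0.91), Timm22 (0.91) and Actc1 (0.90). Over the 12 sham arrays alone these correlations ran from -0.21 to 0.43, and over the 12 I/R arrays from 0.58 to 0.84. The genes most like Tubb6 were Gadd45g (r = 0.97), Lmna (0.96), Fhl1 (0.96), Ppp1r14b (0.96), Slc16a3 (0.96) and Nifk (0.96), with -0.091 to 0.29 over the sham and 0.91 to 0.94 over the I/R arrays. Among the members, Tubb6 and Tuba1c correlated at 0.95 over 24 arrays, 0.73 over the sham and 0.89 over the I/R arrays. Tuba4a and Tuba8 correlated at 0.78 over 24 arrays, at -0.36 over the sham and at 0.36 over the I/R arrays. All arrays share the pup reference, and the I/R arrays share the range of signal described above.

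Markers of cell types moved with the same comparisons, and fewer cells of a type cannot be told apart from less RNA per cell in whole tissue. The marker counts stand beside 13.3%, 5.6%, 15.3% and 32.5% of all genes called in wild-type above, wild-type below, Tg+ above and Tg+ below. Of 10 ventricular cardiomyocyte markers, 2, 1, 3 and 4 fell in wild-type above, wild-type below, Tg+ above and Tg+ below and none rose, with medians of -0.30, -0.30, -0.38 and -0.60; their median level on the single I/R arrays was 2.36 to 4.04. Of 6 neutrophil markers 4 were tested and 3 rose in each comparison, with medians of 1.39, 1.56, 1.46 and 1.83, and their median level was -1.88 to -1.55 on sham and -1.34 to 0.53 on I/R arrays. Of 5 atrial cardiomyocyte markers tested 1, 0, 2 and 1 rose, with the largest medians of any list above the site: 2.57, 0.55, 2.68 and 1.04. Of 8 endothelial markers 3, 2, 0 and 2 fell and none rose, and Kdr, a receptor for vascular endothelial growth factor, differed by -1.26 in wild-type above. Of 7 smooth muscle and pericyte markers 1, 0, 2 and 1 rose and 2, 1, 1 and 1 fell, and of 8 fibroblast markers 0, 0, 1 and 1 rose. Of 6 macrophage markers tested 3, 1, 4 and 3 rose. Of 8 markers of dividing cells 4 were tested, and 1 rose, in Tg+ below. None of 10 markers of neurons and Schwann cells passed the filter. The part of these cell types in the tubulin values was not tested.

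The 250 bases before the transcript start of 3 members that moved are shown from RefSeq on the GRCm38.p6 build, since Tuba4a and Tuba8 lay lower and Tuba1c higher after I/R. Capitals mark matches to any of 5 motifs searched on both strands: CCAAT, the GC box GGGCGG, the E box CACGTG, the AP-1 site TGACTCA and the TATA box TATAAA.
Tuba4a, chr1:75219295-75219544, minus strand: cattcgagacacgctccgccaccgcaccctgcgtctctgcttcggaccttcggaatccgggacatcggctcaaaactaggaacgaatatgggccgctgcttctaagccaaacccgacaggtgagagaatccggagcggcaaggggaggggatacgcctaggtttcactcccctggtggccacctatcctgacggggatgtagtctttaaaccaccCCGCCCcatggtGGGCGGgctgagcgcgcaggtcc
Tuba8, chr6:121210484-121210733, plus strand: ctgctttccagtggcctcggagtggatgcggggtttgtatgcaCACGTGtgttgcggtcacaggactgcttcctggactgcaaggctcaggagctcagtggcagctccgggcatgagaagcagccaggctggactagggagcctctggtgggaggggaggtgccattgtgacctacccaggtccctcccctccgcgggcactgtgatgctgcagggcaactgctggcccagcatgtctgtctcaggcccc
Tuba1c, chr15:99029641-99029890, plus strand: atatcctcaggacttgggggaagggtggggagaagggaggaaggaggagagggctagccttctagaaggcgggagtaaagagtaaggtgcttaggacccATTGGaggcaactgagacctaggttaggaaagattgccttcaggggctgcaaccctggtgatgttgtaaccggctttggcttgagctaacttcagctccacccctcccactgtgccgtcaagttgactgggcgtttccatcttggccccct
The Tuba4a window held 2 GC boxes, a motif found in 32.7% of 32851 such windows. The Tuba8 window held 1 E box, found in 6.02% of all windows, and the Tuba1c window 1 CCAAT motif, found in 33.8%. No AP-1 site or TATA box by these letters was in the windows of the 6 members that had an entry, against 4.46% and 12.4% of all windows. A match is a description of the letters and not of a bound factor.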

How the data were processed

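Two-colour Agilent arrays of 24 heart samples were read from scanner files made with Agilent Feature Extraction, per the file headers. These deposited files give the intensity of each spot and its local background in both channels and, per the file headers, a log10 ratio of Cy5 over Cy3. The authors also deposited a table of processed values, used here only as an alternative. Its log2 values, made by the authors, ran in the same direction as the scanner ratios with a correlation of at least 0.986 on every array, and its column medians lay between -0.11 and 0.14, while its centring is not stated. The log2 ratios reported were computed from the deposited intensities. The labelling protocol names Cy3 for all samples, but the channel labels give the hearts Cy5, which was followed. The aligner of probes to genes and the genome build of the array are not given in the sources used here.

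Mean intensity and median background were corrected by normexp with an offset of 50 and normalised within each array by loess (limma 3.58.1 in R 4.3.3). Outlier spots, 0.317% of all, were left out, and no spot was saturated. Of 41174 probes, 15427 passed the filter on dim probes and gave 11430 genes, named through RefSeq accessions (22951 probes) or older symbols (3109 probes), each by its brightest probe. Group means over all 24 arrays were fitted in limma and p-values adjusted by Benjamini-Hochberg over all genes, with 0.05 as threshold. The fit was tested on simulated data. An array was called weak when under 25% of probes were well above background in Cy5. No pairs of arrays were identical. The labels call the samples biological replicates but name no animals, so whether the pieces of equal number share a heart is unknown: deviations from the group means correlated above 0.1 in 8 of 12 possible pairs of pieces, and the numbers were not taken to pair samples.

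Every member, every other tubulin tested, up to 2 rises and 2 falls with the largest size per other list and I/R comparison, and the 6 genes most like Tuba4a and Tubb6 were named. The members and lists were chosen with earlier results of these data known. Precision rests on 3 arrays per group.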

Additional observations from a re-analysis of the deposited data

Results flagged for a closer look

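In the ratios reported, the probe shared by Tuba1b, Tuba1a and Tuba1c went opposite ways in the pieces of Tg+ hearts. Against the mean of the Tg+ sham arrays of the same piece, the 3 I/R arrays above the ligation site were lower, by -0.34, -0.46 and -0.13 on the log2 scale, and the 3 below it were higher, by 0.16, 0.39 and 0.15. With Agilent's own log ratio both pieces were lower than sham, at -0.53 above and -0.56 below the site, so the opposite directions depended on the processing. In the ratios reported, the effects of I/R below and above the site differed by 0.54. This difference within Tg+ hearts was not tested on its own; with genotypes averaged, the interaction of piece and surgery was 0.42 ± 0.17 (SE) with an adjusted p of 1.0 in limma.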

How the results depend on the processing

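Tuba4a was lower after I/R in all 4 comparisons under every alternative run, a direction that the choice of the gene fixed. The microtubule list genes past the threshold, 17 in wild-type above, 9 in wild-type below, 19 in Tg+ above and 38 in Tg+ below, depended most on the setting. With Agilent's own log ratio, and equally with the authors' value table, Tuba4a was -1.82 in wild-type above, -1.35 in Tg+ above and -1.08 in Tg+ below, list genes came to 6, 3 and 3 in the first 3 comparisons, and members called came to 2 in Tg+ against wild-type I/R tissue below and 1 in I/R tissue below against above. With the Cy5 channel alone these were -1.99, -1.42 and -1.25, then 10, 4 and 5, then 3 and 1. Agilent's own log ratio called 1085, 333 and 741 of all genes, then 1234 and 52, beside these counts. The Cy5 channel alone called 954, 443 and 857, then 1729 and 62. With the mean of all probes Tuba4a was -1.39 in Tg+ above and -1.42 in Tg+ below, and 1 member was called in I/R tissue below against above, as with the heart as a random block. Of all genes, the mean of all probes called 20 there and the random block 53. Without background correction 2 members were called in Tg+ against wild-type I/R tissue below, where 442 of all genes were called. Without the filter on dim probes Tubb5 stayed at 0.92 but lost its call, leaving 0 members. List genes then came to 5 in wild-type below and 9 in Tg+ above, beside 433 and 1294 of all genes. With the slide as a block list genes came to 3, 0, 1 and 3, Tuba4a in Tg+ below to -0.82, and Tubb5 to 0.98 with 0 members called. With only the arrays of the comparison list genes came to 7, 0 and 40 in the first 3 comparisons, and Tubb5, at 0.92, lost its call, leaving 0. All genes called came to 258, 25, 361 and 238 with the slide as a block. They came to 798, 0 and 3706 with only the arrays of the comparison. With array weights list genes came to 48, 17, 59 and 62, beside 4522, 1932, 5284 and 6215 of all genes. Members called came to 1 in Tg+ against wild-type I/R tissue above and 6 below, beside 1362 and 6323 of all genes. Members came to 4 in I/R tissue below against above, beside 458 of all genes. In the interaction of genotype and surgery below they came to 6, beside 5104, and in that of piece and surgery to 1, beside 66. Without the 5 weak-signal arrays list genes came to 8, 12, 53 and 16, Tuba4a to -1.26 in wild-type above and -0.80 in Tg+ below, and Tubb5 to 0.39; 2 members, Tuba8 (-0.98) and Tubb2b (0.54), were then called in Tg+ against wild-type I/R tissue below, where a single Tg+ array is left and is assumed to vary like the other groups. Of all genes, 1349 in wild-type below and 4774 in Tg+ above were called without the weak-signal arrays. Within slide 6 Tuba4a in wild-type below was -0.69. With the replicate number as a block list genes came to 5 in wild-type below; the numbers are not known to pair samples, and counts of list genes elsewhere and the Tubb5 call (0.92) moved less than 1.5 times. The causes of these changes were not tested beyond what the settings themselves remove.

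Leaving out each array in turn, Tuba4a ranged from -1.67 to -1.36 in wild-type above, -1.53 to -0.94 in wild-type below, -1.18 to -0.94 in Tg+ above and -0.91 to -0.84 in Tg+ below. Tubb5 in Tg+ against wild-type I/R tissue below ranged from 0.66 to 1.23, with 0 to 6 members called there, 0 without replicate 2 or 3 of either genotype, 3 without Tg+ replicate 1 and 6 without wild-type replicate 1. Members called ranged from 0 to 2 in I/R tissue below against above and from 0 to 4 in the interaction of genotype and surgery below. The highest counts there were 2 without Tg+ I/R below replicate 1 and 4 without wild-type I/R below replicate 1. List genes ranged from 7 to 24 in wild-type above, 3 to 11 in wild-type below, 3 to 17 in Tg+ above and 19 to 50 in Tg+ below. They moved by over 1.5 times in wild-type above without any sham array or without I/R replicate 1 or 2, in wild-type below without any sham array or without I/R replicate 1, in Tg+ above without any sham array or without I/R replicate 2 or 3, and in Tg+ below without sham replicate 1 or I/R replicate 2 or 3. The number of all genes called in the fits that leave out an array is not given beside these counts. The number of arrays, and on 5 of them a heart signal near background, limit all of these values.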
